A study of Saccharomyces cerevisiae with 10 samples.

Results

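The 37 genes described here encode proteins that build complexes III, IV and V of the yeast respiratory chain without being structural subunits of them. They were taken as a list of gene names by function, drawn up with earlier results of these data known, and each was read by 1 probe set on an Affymetrix array. They are 37 of the 5449 S. cerevisiae genes tested. By role, 4 act on complex III, 27 on complex IV (cytochrome c oxidase) and 6 on the ATP synthase (complex V).

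Complexes III and IV pass electrons from ubiquinol to oxygen and pump protons across the inner mitochondrial membrane, and the ATP synthase uses the resulting gradient to make ATP. Some of their core subunits are translated inside the mitochondrion and must be joined in the membrane to subunits imported from the cytosol, together with heme and copper. Assembly factors carry out these steps: they hold new subunits, insert them into the membrane, make heme A, deliver copper, or couple translation of a mitochondrial mRNA to the fate of its product. In yeast, loss of many of them abolishes growth on carbon sources that can only be respired.

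The study measured mRNA in haploid S. cerevisiae of the background labelled Sce3044, and asked how alleles that arose during laboratory evolution alter expression when placed in the unevolved progenitor. The 10 arrays cover 5 genotypes with 2 cultures each, labelled biological replicates. The Ancestral strain carried no evolved allele, the MKT1e and MDS3e strains carried 1 evolved allele each, and the MDS3e MKT1e and PMA1e MKT1e strains carried 2. All other evolved alleles were absent, and a strain with PMA1e alone was not analysed here. Cultures were started from overnight growth in rich medium (YPD) and sampled in defined medium with 0.25% dextrose, where they grew for about 17 h to an optical density near 0.2. Mkt1 is a cytoplasmic protein with a part in post-transcriptional control, Mds3 is linked to nutrient signalling, and Pma1 is the proton pump of the plasma membrane. Whether a genotype is 1 clone is not stated in the labels, so strain and allele cannot be told apart.

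Levels are given as log2 of the deposited intensity plus 16, an offset that shrinks the differences of dim genes, and differences between genotypes are on the same scale. A difference was called when limma's two-sided test, adjusted by Benjamini-Hochberg over all 5449 genes, gave a value under 0.05. The ± beside a difference is its standard error, and the median standard error of the 37 genes was 0.07. Replicate arrays correlated at 0.996 to 0.998 over all genes, array medians lay between 7.51 and 7.61, and all 37 genes exceeded the background limit of 4.20 on all 10 arrays. The 5 a-specific genes checked exceeded that limit on every array, as did 3 of 4 alpha-specific genes. The a-specific genes read 8.75 to 10.92, against 6.43 to 6.71 in SAG1, the brightest alpha-specific gene, and 5.29 to 5.58 in STE3. MKT1 mRNA read 9.13 and 8.73 in Ancestral and 8.65 and 8.51 in MKT1e, where it fell by 0.35 ± 0.11 (adjusted p = 0.039). The second Ancestral array thus lay close to the first MKT1e array. MKT1 mRNA read 9.04 and 9.02 in MDS3e and 8.80 and 8.81 in MDS3e MKT1e, a difference that did not pass. In PMA1e MKT1e it read 8.56 and 8.60. In MDS3e, PMA1 mRNA differed from Ancestral by -0.37 ± 0.05 (adjusted p = 0.0012). MDS3 mRNA passed in no comparison. The probe sets do not tell the evolved from the ancestral alleles, so these levels do not check the genotypes.

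Most of the assembly factors were higher in all 3 genotypes that carried MKT1e. In 30 of the 37 genes (81.1%), all 6 arrays with MKT1e lay above all 4 arrays without it, against 10.3% of all genes tested. The exceptions were COX19, COX16, CMC2, IMP1, IMP2, ATP22 and ATP10, where the arrays overlapped. The widest gaps between the lowest array with MKT1e and the highest without it were 0.91 in COX10, 0.85 in PET117, 0.77 in ATP12, 0.76 in COA2, 0.66 in BCS1 and 0.62 in CBP6. By limma's F-test, 34 of the 37 differed among the 5 genotypes, against 55.0% of all genes, and IMP1, IMP2 and COX16 did not pass. These values are mRNA per unit of RNA in a whole culture, so fewer cells expressing a gene and less mRNA per cell cannot be told apart.

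**Figure D1:**
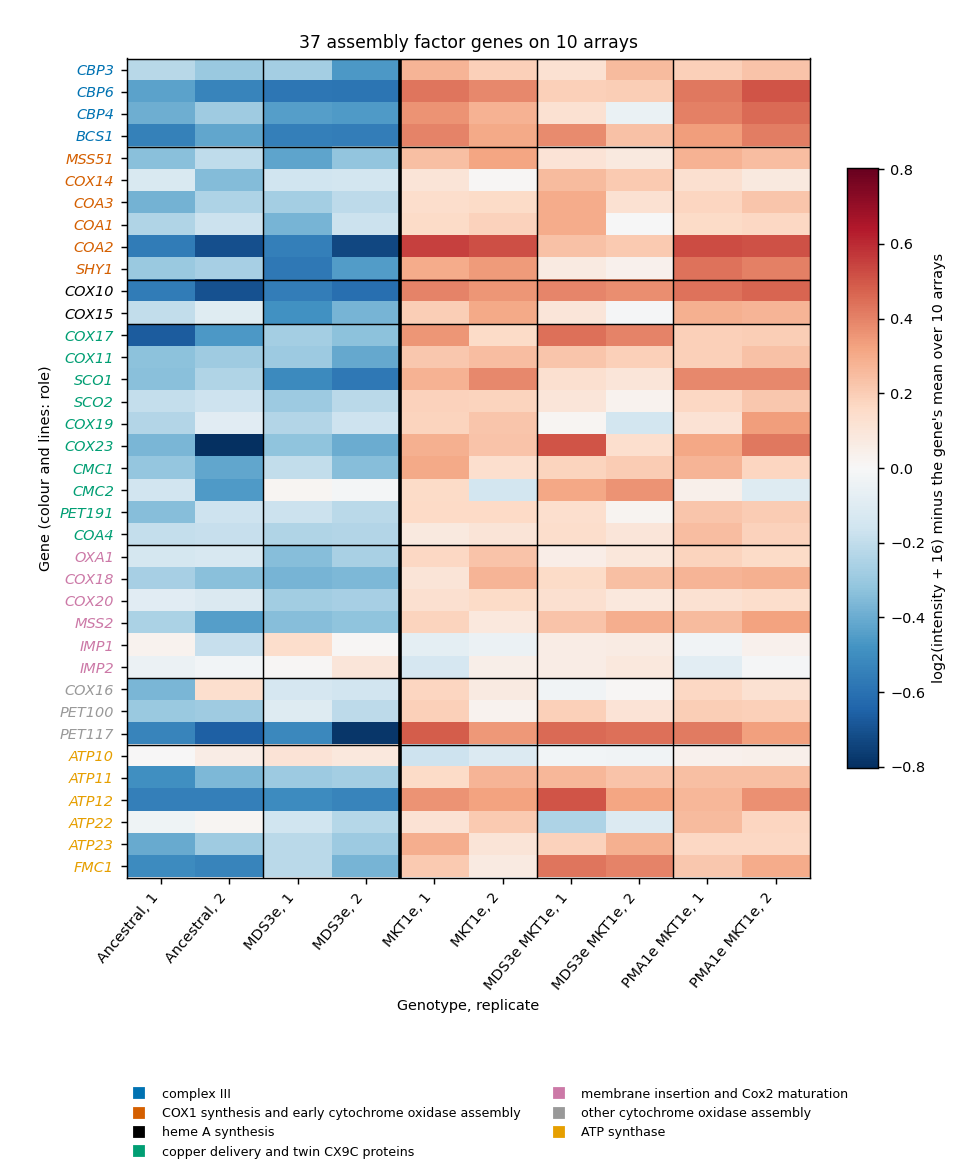
Level of each of the 37 genes on each of the 10 arrays, as the difference in log2(intensity + 16) from that gene's mean over all arrays; rows are genes grouped by role and columns are arrays grouped by genotype. The 6 arrays with MKT1e are above the 4 without it in 30 of the 37 rows.

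In MKT1e against Ancestral, 31 genes rose and 1 fell, where 11.8% of all genes rose and 8.48% fell (10.7% and 11.7% with each array centred on its median). The median difference of the 37 was 0.49, against -0.01 over all genes. The differences that passed in the upward direction ran from 0.25 in COX20 to 1.17 in COA2. ATP10 fell by 0.17 ± 0.05 (limma adjusted p = 0.039), and CMC2, COX16, ATP22, IMP1 and IMP2 did not pass.

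**Figure D2:**
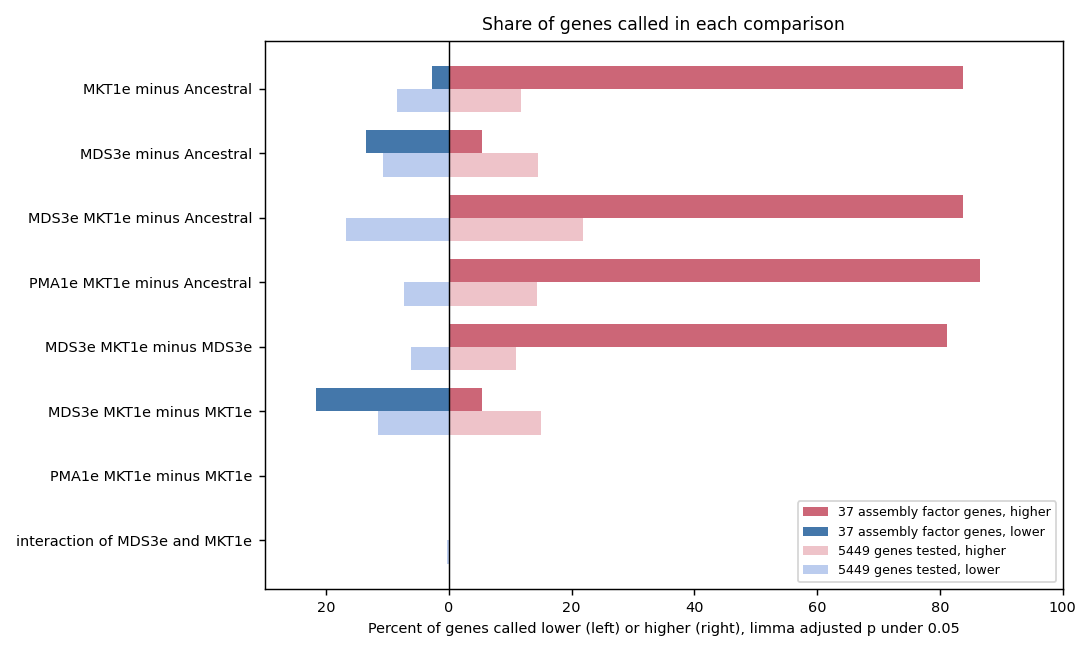
Percent of genes called higher (to the right) and lower (to the left) in each comparison, for the 37 assembly factors and for all 5449 genes. The assembly factors are called higher in 81.1% to 86.5% in the 4 comparisons that add MKT1e, against 11.0% to 21.9% of all genes.

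All 4 complex III factors rose with MKT1e. CBP6 and CBP3 encode partners that bind the mitochondrial ribosome and promote the synthesis of cytochrome b and its first assembly step. CBP6 read 7.97 and 7.87 in Ancestral, 8.83 and 8.78 in MKT1e, 7.82 and 7.81 in MDS3e, 8.59 and 8.60 in MDS3e MKT1e, and 8.82 and 8.90 in PMA1e MKT1e. Its arrays with MKT1e were all above those without it, and both MDS3e MKT1e arrays were below both MKT1e arrays. The rise over Ancestral was 0.89 ± 0.06, or 1.85-fold in intensity plus 16 (limma adjusted p = 4.8e-06). CBP3 rose by 0.49 ± 0.07.

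BCS1 encodes the AAA protein that moves the Rieske iron-sulfur protein Rip1 across the inner membrane into complex III. It read 7.17 and 7.29 in Ancestral, 8.11 and 8.01 in MKT1e, and 7.16 and 7.16 in MDS3e, while MDS3e MKT1e gave 8.09 and 7.95 and PMA1e MKT1e gave 8.05 and 8.12. The 4 arrays without MKT1e therefore stayed under 7.30 and the other 6 were above 7.90. BCS1 rose by 0.83 ± 0.07 in MKT1e (adjusted p = 1.8e-05) and by 0.86 ± 0.07 when MKT1e was added to MDS3e (adjusted p = 1.6e-05). CBP4, a further factor of cytochrome b assembly, rose by 0.66 ± 0.07 and 0.49 ± 0.07 in the same 2 comparisons.

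The 6 genes that act in the synthesis of the mitochondrially encoded subunit Cox1 or soon after it all rose in MKT1e. COA2, whose product acts as Cox1 takes up heme A, had the largest difference of the 37. It read 6.66 and 6.51 in Ancestral, 7.77 and 7.74 in MKT1e, 6.67 and 6.49 in MDS3e, 7.46 and 7.43 in MDS3e MKT1e, and 7.75 and 7.74 in PMA1e MKT1e. MDS3e MKT1e stood between the other genotypes with MKT1e and those without. COA2 rose by 1.17 ± 0.07 over Ancestral, a 2.25-fold difference (limma adjusted p = 4.8e-06).

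SHY1, the homolog of human SURF1, acts at a Cox1 assembly intermediate. It read 6.54 and 6.57 in Ancestral, 7.13 and 7.18 in MKT1e, 6.26 and 6.38 in MDS3e, 6.90 and 6.87 in MDS3e MKT1e, and 7.27 and 7.24 in PMA1e MKT1e. No genotype overlapped another for SHY1, and the order from low to high was MDS3e, Ancestral, MDS3e MKT1e, MKT1e, PMA1e MKT1e. MKT1e raised it by 0.60 ± 0.06 (limma adjusted p = 4.4e-05). MSS51, which activates translation of COX1 mRNA and binds the new protein, rose by 0.55 ± 0.06.

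COX14 and COA3, which hold Mss51 together with newly made Cox1, rose by 0.29 ± 0.07 and 0.46 ± 0.07. COA1, which acts beside Shy1, rose by 0.37 ± 0.09 (adjusted p = 0.019). COX14 read 8.73 and 8.50 in Ancestral and 8.96 and 8.86 in MKT1e, so that the first Ancestral array came close to the second MKT1e array. The COX14 call was lost without Ancestral replicate 2 (0.18) or MKT1e replicate 1 (0.24). That of COA1 was lost without Ancestral replicate 1 (0.34), MKT1e replicate 1 (0.39) or MKT1e replicate 2 (0.36).

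Both genes of heme A synthesis rose. COX10 encodes the farnesyltransferase that turns heme B into heme O, and COX15 acts in the next step, which yields heme A, the cofactor found in cytochrome oxidase. COX10 read 6.81 and 6.66 in Ancestral, 7.76 and 7.72 in MKT1e, 6.81 and 6.76 in MDS3e, 7.76 and 7.74 in MDS3e MKT1e, and 7.81 and 7.84 in PMA1e MKT1e. The array values fell into a low set of 4 and a high set of 6, with the 3 genotypes carrying MKT1e within 0.12 of each other. COX10 rose 2.01-fold in MKT1e, or 1.01 ± 0.06 (limma adjusted p = 4.8e-06).

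COX15 read 9.29 and 9.39 in Ancestral, 9.68 and 9.79 in MKT1e, 9.002 and 9.113 in MDS3e, 9.58 and 9.48 in MDS3e MKT1e, and 9.77 and 9.76 in PMA1e MKT1e. Here the lowest array with MKT1e was just 0.09 above the highest without it. Its rise in MKT1e was 0.40 ± 0.07 (limma adjusted p = 0.002).

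Of the 10 genes for copper delivery and for small intermembrane-space proteins with twin CX9C motifs, 9 rose in MKT1e and CMC2 did not pass. COX17, the copper carrier that supplies Sco1 and Cox11, read 8.93 and 9.14 in Ancestral, 9.96 and 9.76 in MKT1e, 9.33 and 9.28 in MDS3e, 10.046 and 10.001 in MDS3e MKT1e, and 9.79 and 9.80 in PMA1e MKT1e. Both MDS3e arrays lay between Ancestral and the genotypes with MKT1e. COX17 rose by 0.82 ± 0.08 (adjusted p = 5.5e-05).

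SCO1, which passes copper to the site in Cox2, read 7.53 and 7.63 in Ancestral, 8.15 and 8.26 in MKT1e, 7.35 and 7.29 in MDS3e, 7.998 and 7.965 in MDS3e MKT1e, and 8.25 and 8.26 in PMA1e MKT1e. Each genotype with MDS3e was below its counterpart without it. SCO1 rose by 0.62 ± 0.06 in MKT1e and its paralog SCO2, which is not needed for respiration in yeast, by 0.36 ± 0.05. COX11, which passes copper to the site in Cox1, rose by 0.54 ± 0.06.

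COX23, which encodes a twin CX9C protein related to Cox17, varied more between replicate cultures. It read 6.14 and 5.70 in Ancestral, 6.80 and 6.74 in MKT1e, 6.19 and 6.11 in MDS3e, 7.02 and 6.64 in MDS3e MKT1e, and 6.82 and 6.93 in PMA1e MKT1e. The arrays with and without MKT1e did not overlap in spite of the spread within genotypes. The rise in MKT1e was 0.84 ± 0.14 (limma adjusted p = 0.0018).

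The other twin CX9C genes moved less. CMC1 rose by 0.58 ± 0.08, PET191 by 0.41 ± 0.07 and COA4 by 0.28 ± 0.05. COX19 rose by 0.36 ± 0.09 (adjusted p = 0.014), and its call was lost without Ancestral replicate 1 (0.29) or MKT1e replicate 2 (0.34). CMC2 read 8.06 and 7.76 in Ancestral and 8.37 and 8.06 in MKT1e, arrays that touch, and its difference of 0.31 ± 0.11 did not pass (adjusted p = 0.076). CMC2 was called without Ancestral replicate 1 (0.46) and without MKT1e replicate 2 (0.46).

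Among the 6 genes for membrane insertion and maturation of Cox2, 4 rose in MKT1e and the 2 peptidase genes did not pass. OXA1, the insertase for mitochondrially made proteins, rose by 0.34 ± 0.05. COX18 and MSS2, which act in moving the Cox2 tail across the membrane, rose by 0.49 ± 0.07 and 0.48 ± 0.07. COX20, the chaperone that presents Cox2 for cleavage, rose by 0.25 ± 0.05.

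IMP1 and IMP2 encode the catalytic subunits of the inner membrane peptidase, which cleaves Cox2 and also imported proteins outside the respiratory complexes. IMP1 read 8.21 and 7.99 in Ancestral, 8.10 and 8.13 in MKT1e, 8.32 and 8.19 in MDS3e, 8.24 and 8.24 in MDS3e MKT1e, and 8.15 and 8.21 in PMA1e MKT1e. IMP2 read 7.04 and 7.06, 6.95 and 7.13, 7.10 and 7.18, 7.14 and 7.17, and 6.999 and 7.074 in the same order. Genotypes with and without MKT1e overlapped for both. The MKT1e differences were 0.02 ± 0.07 and -0.01 ± 0.07.

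**Figure D3:**
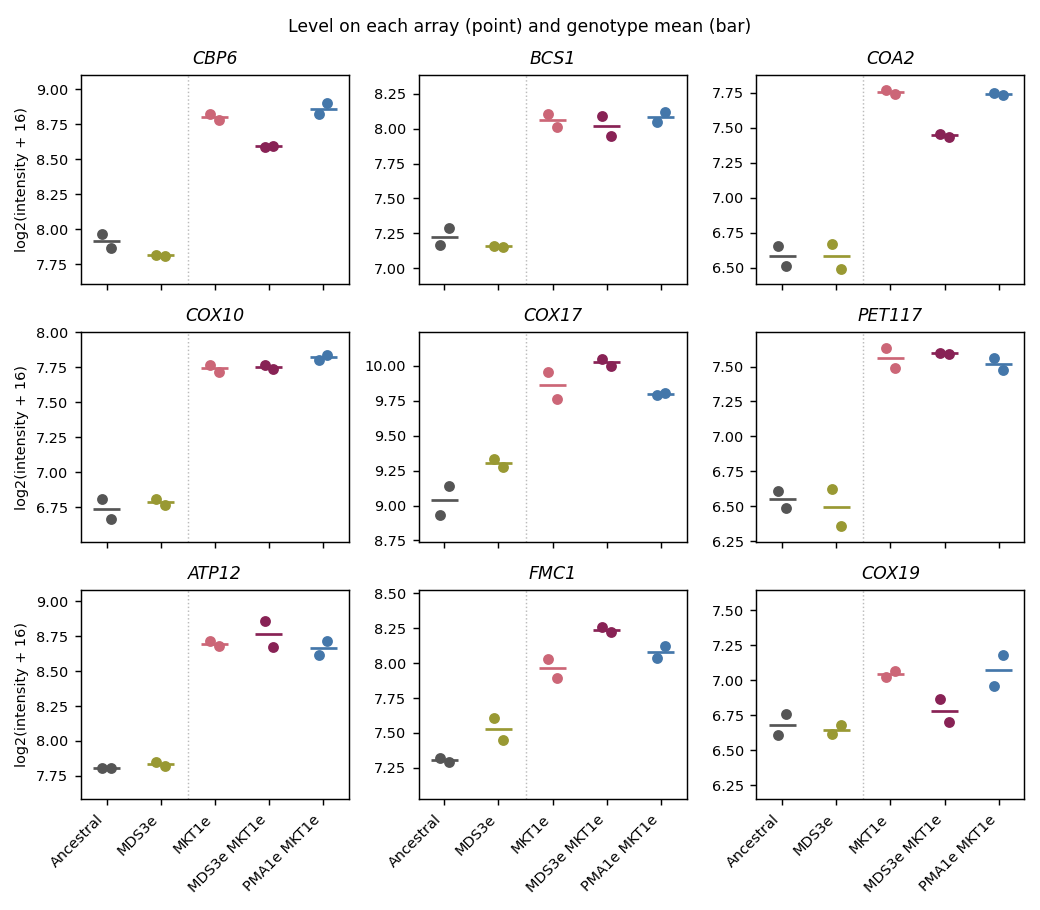
Level of 9 genes, as log2(intensity + 16), on the 2 arrays of each genotype (points) with the genotype mean (line); every panel spans 1.5 units. CBP6, BCS1, COA2, COX10, COX17, PET117, ATP12 and FMC1 are higher on all 6 arrays with MKT1e, and COX19 overlaps.

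PET100 and PET117, which act in cytochrome oxidase assembly, rose in MKT1e. PET117 read 6.61 and 6.49 in Ancestral, 7.63 and 7.49 in MKT1e, 6.62 and 6.36 in MDS3e, 7.60 and 7.59 in MDS3e MKT1e, and 7.56 and 7.48 in PMA1e MKT1e. No array of a genotype with MKT1e came near one without it. PET117 rose by 1.01 ± 0.09 (limma adjusted p = 2.5e-05) and PET100 by 0.40 ± 0.07.

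COX16, which encodes a further cytochrome oxidase assembly protein, rested on a split between the Ancestral cultures. They read 7.41 and 7.90, against 7.94 and 7.84 in MKT1e, 7.64 and 7.62 in MDS3e, 7.74 and 7.78 in MDS3e MKT1e, and 7.94 and 7.89 in PMA1e MKT1e. The second Ancestral array lay among the MKT1e arrays, and the first lay below all others. The difference of 0.24 ± 0.12 did not pass (adjusted p = 0.2). It was -0.01 without Ancestral replicate 1 and 0.49 without Ancestral replicate 2, where it passed (adjusted p = 0.00088).

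Of the 6 ATP synthase factors, 4 rose with MKT1e, ATP22 did not pass and ATP10 fell. ATP11 and ATP12 encode chaperones for the beta and alpha subunits of the F1 part, and Fmc1 acts in F1 assembly at high temperature. ATP12 read 7.81 and 7.80 in Ancestral, 8.71 and 8.68 in MKT1e, 7.85 and 7.82 in MDS3e, 8.86 and 8.67 in MDS3e MKT1e, and 8.62 and 8.72 in PMA1e MKT1e. The 4 arrays without MKT1e agreed to within 0.05, and all other arrays were at least 0.77 higher. ATP12 rose by 0.89 ± 0.07 (limma adjusted p = 1.1e-05), and ATP11 by 0.64 ± 0.06.

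FMC1 read 7.32 and 7.29 in Ancestral, 8.03 and 7.90 in MKT1e, 7.61 and 7.45 in MDS3e, 8.25 and 8.22 in MDS3e MKT1e, and 8.04 and 8.12 in PMA1e MKT1e. Ancestral was lowest, MDS3e came next, and MDS3e MKT1e was highest. The rise in MKT1e was 0.66 ± 0.07 (adjusted p = 8.6e-05). ATP23, which encodes a protease that processes the Atp6 precursor and aids its assembly, rose by 0.55 ± 0.07.

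ATP22, needed for translation of the mitochondrial ATP6 mRNA, followed another order. It read 6.78 and 6.83 in Ancestral, 6.93 and 7.02 in MKT1e, 6.65 and 6.58 in MDS3e, 6.56 and 6.70 in MDS3e MKT1e, and 7.07 and 6.99 in PMA1e MKT1e. Both genotypes with MDS3e lay below Ancestral. The MKT1e difference of 0.17 ± 0.07 did not pass (limma adjusted p = 0.089).

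ATP10, a chaperone of Atp6, was the dimmest of the 37. It read 4.54 and 4.60 in Ancestral, 4.37 and 4.43 in MKT1e, 4.65 and 4.62 in MDS3e, 4.51 and 4.51 in MDS3e MKT1e, and 4.58 and 4.58 in PMA1e MKT1e, close to the background limit of 4.20. The alpha-specific gene MF(ALPHA)2 also exceeded that limit on all 10 arrays, at 4.25 to 4.50. Passing the limit therefore does not show that ATP10 was expressed. For ATP10, MKT1e was lowest and PMA1e MKT1e was level with Ancestral. The call of ATP10 was lost whichever of the 10 arrays was left out, with differences of -0.20 to -0.14.

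The effect of MKT1e was measured a second time, on other arrays, by setting MDS3e MKT1e against MDS3e. There 30 of the 37 genes rose and none fell, where 11.0% of all genes rose and 6.24% fell (9.45% and 8.97% with median centring). The median difference was 0.47, against -0.01 over all genes. All 30 were among the 31 that rose in MKT1e against Ancestral, which is 100% of the shorter and 96.8% of the longer list. Over all genes the same shares were 72.9% and 67.8%. Of the 37, 81.1% rose in both, against 7.98% of all genes. The remaining gene, COX19, differed by 0.13 ± 0.09 where MDS3e was present (adjusted p = 0.33).

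The largest rises on the MDS3e background were 1.10 ± 0.09 in PET117 (limma adjusted p = 1.6e-05), 0.97 ± 0.06 in COX10 (adjusted p = 7e-06) and 0.93 ± 0.07 in ATP12 (adjusted p = 9.5e-06). They were followed by COA2 with 0.87 ± 0.07, BCS1 with 0.86 ± 0.07 and CBP6 with 0.78 ± 0.06. Of these 6 genes, 5 were also among the 6 with the largest rises against Ancestral. Across the 37 genes, the 2 sets of differences had a Pearson correlation of 0.936 and a Spearman correlation of 0.919. Over all genes these were 0.812 and 0.722. The 2 comparisons share no array, but genes are not independent replicates. The calls of COA1, COX23, PET191 and PET100 on the MDS3e background were lost without MDS3e MKT1e replicate 1, with differences of 0.27, 0.49, 0.21 and 0.27. Leaving out MDS3e replicate 1 ended those of COA1 (0.32) and PET191 (0.29), and leaving out MDS3e replicate 2 ended those of COX23 (0.64), PET191 (0.25) and PET100 (0.26).

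**Figure D4:**
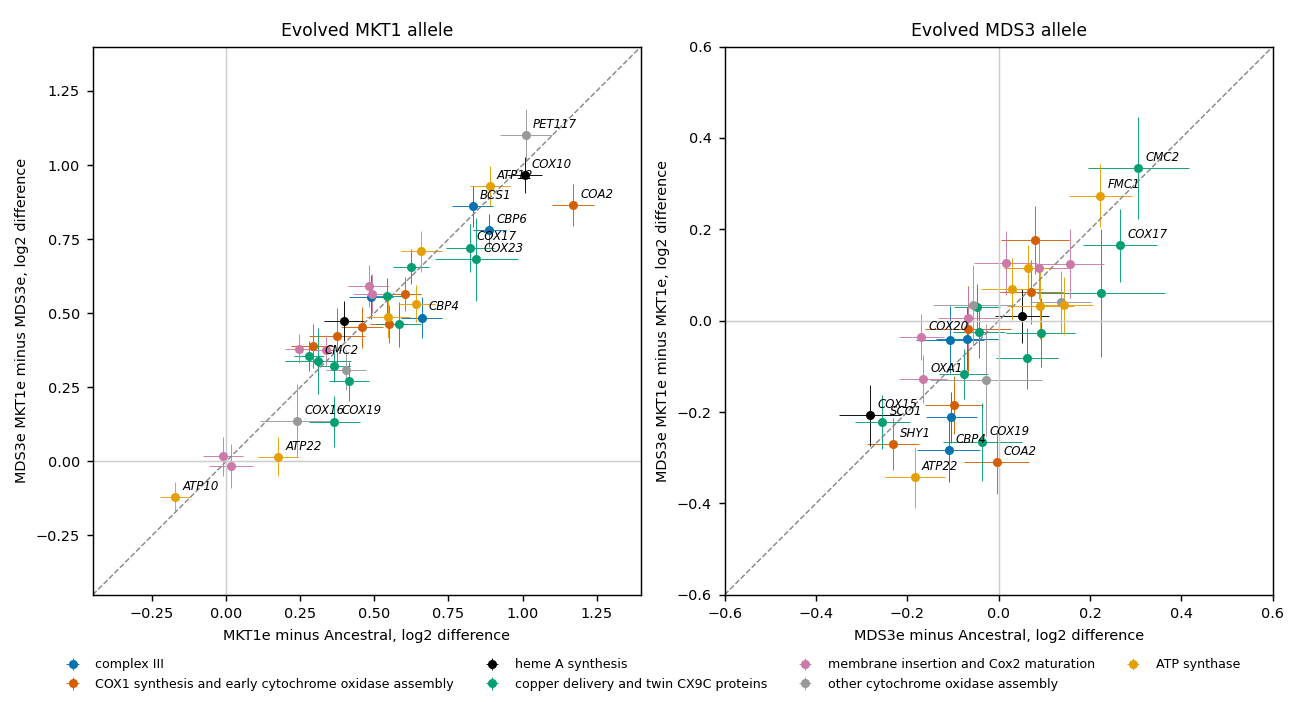
Differences in log2(intensity + 16) for the 37 genes, with standard errors: left, MKT1e against Ancestral (x axis) and MDS3e MKT1e against MDS3e (y axis); right, MDS3e against Ancestral (x axis) and MDS3e MKT1e against MKT1e (y axis). The left points follow the line of equal values over a range up to 1.17, and the right points lie between -0.34 and 0.33.

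Whether the 2 alleles together departed from the sum of their single effects was tested by the interaction. None of the 37 genes passed, and 0.385% of all genes did. At an unadjusted p under 0.05 there was 1 of the 37 (2.7%), against 7.1% of all genes. It was COA2, whose interaction was -0.31 ± 0.10, with a 95% interval of -0.53 to -0.08 and a limma adjusted p of 0.43. The intervals of the 37 ran from -0.60 to 0.38, with a median half-width of 0.21, so departures of that size were not detectable in most genes.

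With MDS3e alone, 7 of the 37 genes differed from Ancestral, by small amounts, beside 25.2% of all genes. Against Ancestral 2 rose and 5 fell, where 14.5% of all genes rose and 10.7% fell, and the median difference was -0.03 against 0.03 over all genes. With median centring the 37 split into 0 higher and 6 lower, and all genes into 9.25% higher and 15.5% lower. The falls were COX15 by 0.28 ± 0.07 (limma adjusted p = 0.014), SCO1 by 0.25 ± 0.06 (adjusted p = 0.013), SHY1 by 0.23 ± 0.06 (adjusted p = 0.016), and COX20 and OXA1 by 0.17 ± 0.05 each.

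COX20 read 7.96 and 7.93 in Ancestral and 7.77 and 7.78 in MDS3e, and OXA1 read 8.46 and 8.48 in Ancestral and 8.27 and 8.34 in MDS3e. The arrays of the 2 genotypes did not overlap for either gene. The rises were COX17 by 0.27 ± 0.08 (adjusted p = 0.037) and FMC1 by 0.22 ± 0.07 (adjusted p = 0.041), and neither passed with median centring.

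The count of 7 depended on single arrays. It was 1 without Ancestral replicate 2 or without MDS3e replicate 1, and 3 without MDS3e replicate 2 or without either PMA1e MKT1e array. It was 4 without either MDS3e MKT1e array. No call of the 7 survived all alternatives, while none changed direction.

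Where MKT1e was present, 10 of the 37 genes differed with MDS3e added, a share close to the 26.4% of all genes that did. In MDS3e MKT1e against MKT1e, 2 rose and 8 fell, where 15.0% of all genes rose and 11.5% fell, and the median was -0.02 against 0.03 over all genes. Median centring gave 1 higher and 11 lower, with 8.53% and 16.7% of all genes. ATP22 fell by 0.34 ± 0.07 (limma adjusted p = 0.0051), COA2 by 0.31 ± 0.07 (adjusted p = 0.011), CBP4 by 0.28 ± 0.07 (adjusted p = 0.015) and SHY1 by 0.27 ± 0.06 (adjusted p = 0.0079). COX19 fell by 0.27 ± 0.09 (adjusted p = 0.043), SCO1 by 0.22 ± 0.06, CBP6 by 0.21 ± 0.06 and COX15 by 0.21 ± 0.07.

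CBP4 read 8.71 and 8.62 in MKT1e and 8.47 and 8.29 in MDS3e MKT1e, with 7.95 and 8.06 in Ancestral. COX19 read 7.03 and 7.07 in MKT1e and 6.86 and 6.70 in MDS3e MKT1e, with 6.61 and 6.76 in Ancestral and 6.61 and 6.68 in MDS3e. CBP4 in MDS3e MKT1e thus stayed above Ancestral, while the arrays of COX19 overlapped with those of Ancestral. The rises were CMC2 by 0.33 ± 0.11 (limma adjusted p = 0.049), from 8.37 and 8.06 in MKT1e to 8.52 and 8.58, and FMC1 by 0.27 ± 0.07 (adjusted p = 0.017).

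The count of 10 was 1 without MKT1e replicate 2 or without MDS3e MKT1e replicate 2, and 5 without MDS3e MKT1e replicate 1. ATP22 lost its call without MKT1e replicate 2 alone (-0.30, adjusted p = 0.051), and every other gene of the 10 lost its call in at least 2 alternatives.

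Between the 2 comparisons that isolate MDS3e and share no array, SHY1, COX15 and SCO1 fell in both and FMC1 rose in both. The 3 shared falls are 60% of the 5 on the Ancestral background and 37.5% of the 8 where MKT1e was present, below the 72% and 67.4% that the same shares reach over all genes. They are 8.11% of the 37, close to the 7.73% of all genes that fell in both, and 8.66% of all genes rose in both. The 37 pairs of differences had a Pearson correlation of 0.777 and a Spearman correlation of 0.783, against 0.837 and 0.771 over all genes.

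In the strain with MDS3e and MKT1e together, 31 of the 37 genes were above Ancestral and none below. Of all genes 21.9% were higher and 16.7% lower. The median of the 37 was 0.45 against 0.03 over all genes, and it was 0.365 with median centring. With median centring, 27 were higher and 1 lower, beside 14.4% and 26.1% of all genes. PET117 was higher by 1.04 ± 0.09, COX10 by 1.02 ± 0.06, COX17 by 0.99 ± 0.08, ATP12 by 0.96 ± 0.07, FMC1 by 0.93 ± 0.07 and COX23 by 0.91 ± 0.14. The limma adjusted p of these 6 was at most 0.00074. CMC2, which did not pass in the single strains, was higher by 0.64 ± 0.11 (adjusted p = 0.0014). This comparison and those of the other 3 strains use the same 2 Ancestral arrays.

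PMA1e MKT1e against Ancestral gave 32 genes higher and none lower, where 14.3% of all genes were higher and 7.32% lower (10.8% and 14.4% with median centring). The median was 0.51 against 0.01. COA2 was higher by 1.16 ± 0.07, COX10 by 1.09 ± 0.06, PET117 by 0.97 ± 0.09, CBP6 by 0.95 ± 0.06, COX23 by 0.95 ± 0.14 and ATP12 by 0.86 ± 0.07. The limma adjusted p of these 6 was at most 0.00076. ATP22 was the gene called here and not in MKT1e, at 0.23 ± 0.07 (adjusted p = 0.035). It lost that call without either Ancestral array (0.20 and 0.25) or either PMA1e MKT1e array (0.19 and 0.27).

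Adding PMA1e to MKT1e changed none of the 37 by limma's test, and 0.0184% of all genes passed. At an unadjusted p under 0.05 there were 3 of the 37 (8.11%, against 9.86% of all genes), ATP10 with 0.18 ± 0.05, MSS2 with 0.16 ± 0.07 and COA4 with 0.12 ± 0.05, and the smallest adjusted p was 0.28, in ATP10. The 95% intervals of all 37 lay between -0.28 and 0.42. For COA2 the interval was -0.17 to 0.14, for COX10 -0.05 to 0.21 and for PET117 -0.24 to 0.15.

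Some other nuclear genes of the same complexes also rose with MKT1e, and whether their shares differ from that of the 37 was not tested. Over all genes, 11.8% rose in MKT1e and 11.0% where MDS3e was present. Of 9 complex III subunits, 6 rose in MKT1e and 5 where MDS3e was present, with medians of 0.32 and 0.23. The largest rises in MKT1e were CYT1, cytochrome c1, by 0.66 ± 0.08 and RIP1, the Rieske protein that Bcs1 moves, by 0.64 ± 0.06. Of 14 ATP synthase subunits, 6 and 5 rose, with medians of 0.20 and 0.19. In PMA1e MKT1e against Ancestral, 2 of the 14 were higher, or 14.3%, the same share as of all genes. In MDS3e MKT1e against Ancestral, 4 of the 14 were higher and 1 lower, with a median of 0.06. Of all genes, 21.9% were higher and 16.7% lower there. Of the 9 complex III subunits, 5 were higher in PMA1e MKT1e, and 4 were higher and 1 lower in MDS3e MKT1e. ATP20 rose by 0.54 ± 0.07 in MKT1e, and ATP19 by 0.47 ± 0.12. ATP19 read 10.21 and 10.10 in MDS3e and 10.15 and 10.26 in MDS3e MKT1e, arrays that overlap. ATP20 read 10.11 and 9.96 in MDS3e and 10.37 and 10.41 in MDS3e MKT1e, without overlap.

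Of 9 nuclear cytochrome oxidase subunits, 7 rose and 1 fell in MKT1e, and 2 rose and 1 fell where MDS3e was present. The shares of all genes were 11.8% and 8.48% in MKT1e, and 11.0% and 6.24% where MDS3e was present. The medians of the 9 subunits were 0.39 and 0.22, and COX13 and COX7 rose in MKT1e by 0.59 ± 0.13 and 0.56 ± 0.09. The gene that fell was COX5B, the isoform of subunit 5 favoured when oxygen is low. It read 9.43 and 9.45 in Ancestral, 8.84 and 8.97 in MKT1e, 8.92 and 8.70 in MDS3e, 8.44 and 8.49 in MDS3e MKT1e, and 9.10 and 8.92 in PMA1e MKT1e. Every evolved genotype was below Ancestral. COX5B fell by 0.53 ± 0.08 (limma adjusted p = 0.0013) in MKT1e, and by 0.34 ± 0.08 (adjusted p = 0.019) where MDS3e was present.

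Of 7 further assembly factors outside the 37, 4 rose in MKT1e and 3 where MDS3e was present, beside 11.8% and 11.0% of all genes. Their medians were 0.25 and 0.15. None was called lower, and the lowest differences were -0.14 and -0.21. MZM1, a chaperone of Rip1 before its insertion, rose by 0.85 ± 0.06 and 0.74 ± 0.06, and RCF1, which acts in respiratory supercomplexes, by 0.61 ± 0.10 and 0.62 ± 0.10. Of 12 activators of translation of mitochondrial mRNAs, 3 and 8 rose, with medians of 0.16 and 0.31. ATP25 and CBS2 rose in MKT1e by 0.47 ± 0.06 and 0.34 ± 0.09.

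Of 7 regulators linked to respiratory genes, 2 rose and 1 fell in MKT1e, where 11.8% of all genes rose and 8.48% fell. In MDS3e MKT1e against Ancestral, 3 were higher and 1 lower, beside 21.9% and 16.7% of all genes. In PMA1e MKT1e against Ancestral, 3 were higher and none lower, beside 14.3% and 7.32%. Where MDS3e was present, MKT1e raised 2 and lowered none, beside 11.0% and 6.24%. With so few regulators, whether these shares differ was not tested. HAP2 and HAP5, subunits of the CCAAT-binding complex, rose by 0.40 ± 0.08 and 0.32 ± 0.07. HAP3, a further subunit, read 7.16 and 7.18 in Ancestral and 7.24 and 7.28 in MKT1e, and did not pass. HAP4, its activating subunit, differed by 0.15 ± 0.07 and did not pass (limma adjusted p = 0.17), although it passed in PMA1e MKT1e against Ancestral at 0.34 ± 0.07. PUF3, which encodes a protein that binds mRNAs for mitochondrial proteins, read 6.10 and 5.81 in Ancestral, 5.63 and 5.50 in MKT1e, 6.14 and 5.99 in MDS3e, 6.13 and 5.99 in MDS3e MKT1e, and 5.65 and 5.75 in PMA1e MKT1e.

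PUF3 fell by 0.39 ± 0.10 in MKT1e (adjusted p = 0.018), differed by -0.26 ± 0.10 in PMA1e MKT1e against Ancestral (adjusted p = 0.09), and differed by 0.00 ± 0.10 where MDS3e was present. Its arrays lay below both Ancestral arrays in MKT1e and PMA1e MKT1e, and overlapped with them in MDS3e MKT1e. Its interaction of 0.39 ± 0.14 did not pass (adjusted p = 0.53).

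**Figure D5:**
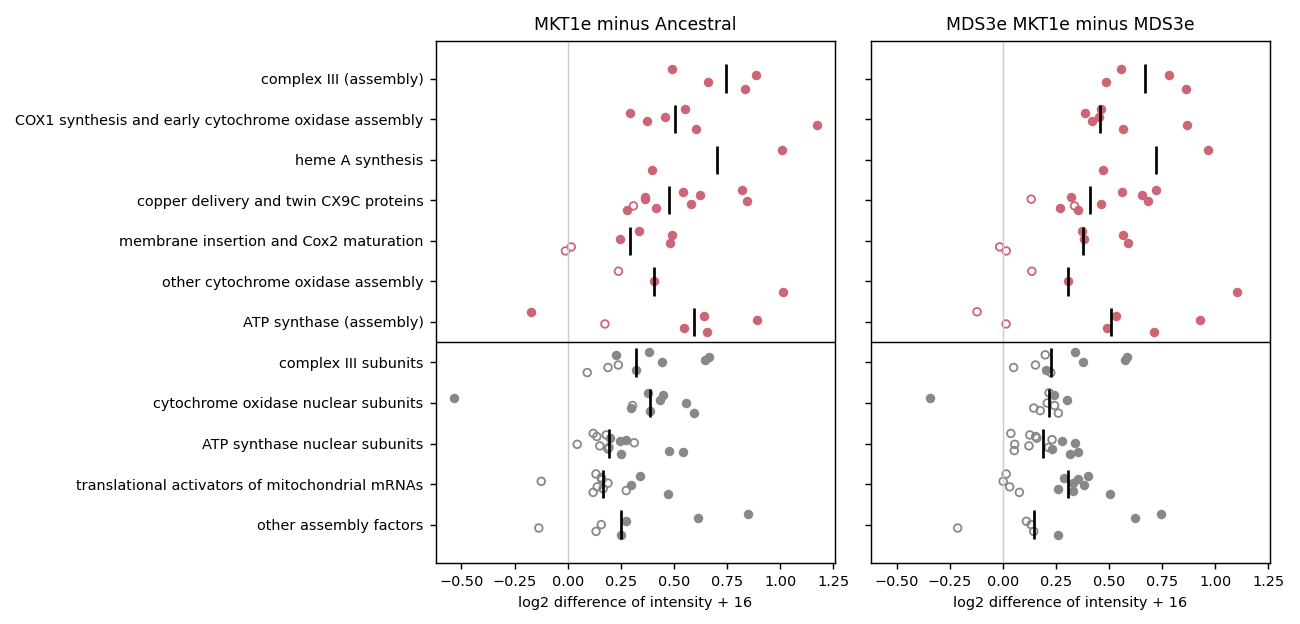
Differences in log2(intensity + 16) for the roles within the 37 genes and for the other gene lists, in MKT1e against Ancestral (left) and MDS3e MKT1e against MDS3e (right); each point is a gene, filled where called, and the bar is the median of its list. The complex III factors all lie to the right of 0 in both panels, and COX5B lies to the left of 0 in both.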

How the data were processed

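Total RNA was labelled with biotin and hybridised to Affymetrix arrays, 1 per culture. The deposited values are linear intensity values per probe set, which the authors normalized in Affymetrix Expression Console, per the submitters' processing notes. The sources used here do not give its version, algorithm or scaling, nor the genome build. Of 10928 probe sets, 5498 named 1 S. cerevisiae gene. The brightest was kept for 47 genes with several, which left 5449 genes named through the RefSeq table of the R64 assembly. A gene counted as above background where it exceeded the 95th percentile of 1746 probe sets of another species. All 37 genes had 1 unshared probe set.

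Intensities plus 16 were taken to log2. A linear model with a mean for each genotype was fitted over the 10 arrays with limma 3.58.1 (R 4.3.3) and its empirical Bayes variances, and tests were two-sided with Benjamini-Hochberg adjustment over all genes at 0.05. The fit was tested on simulated data. The alternatives were pseudocounts of 1 and 64, median centring, quantile normalization, genes below background left out, probe set means, shared probe sets left out, the compared genotypes alone, trended robust variances, a replicate block, and each array left out.

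The 37 genes and the other lists were chosen with earlier results of these data known. Full values went to up to 6 rises and 6 falls per comparison, taken by size among called genes whose arrays do not overlap, and to others named with a reason. From each other list, 70 genes in all, up to 2 were named by the same rule. COX5B, HAP3, HAP4, HAP5 and the values across genotypes of PUF3 were added after their values were seen. Of 71 listed names, 1 was a synonym of COA4 and was dropped. Promoter and protein sequences were not analysed here.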

Additional observations from a re-analysis of the deposited data

How the results depend on the processing

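Each of 142 calls of a gene in a comparison was recomputed under 20 alternatives, and none changed direction. Of the 142, 106 were kept in all 20 and 36 were lost at least once, while 20 pairs not called became called at least once. The calls kept in all 20 were 27 of 32 in MKT1e against Ancestral, 26 of 31 in MDS3e MKT1e against Ancestral, 27 of 32 in PMA1e MKT1e against Ancestral, 26 of 30 in MDS3e MKT1e against MDS3e, and 0 of both the 7 and the 10 that isolate MDS3e. For MDS3e against Ancestral, the count of 7 was 4 with a pseudocount of 1, 2 with the compared genotypes alone, and 1 to 7 when an array was left out. For MDS3e MKT1e against MKT1e, the count of 10 was 1 to 12 when an array was left out. The cause of these shifts was not tested, beyond the fewer arrays that some alternatives use. All other counts stayed within 1.5 times their value. Some sizes moved more. In MDS3e MKT1e against Ancestral, the median difference of 0.45 was 0.365 with median centring and 0.36 with quantile normalization or a pseudocount of 64. The median of 0.51 in PMA1e MKT1e against Ancestral was 0.41 with a pseudocount of 64.

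Replicate numbers are shared by the genotypes, and whether they pair the arrays was not settled, because the correlations of deviations were mixed. Between arrays of the same number these ran from -0.20 to 0.39 over 10 pairs of genotypes, with 3 above 0.1. Those 3 were 0.39 for Ancestral with MKT1e, 0.24 for Ancestral with MDS3e and 0.19 for MKT1e with MDS3e. MDS3e MKT1e was negative with every other genotype. With the replicate number as a block, the counts of called genes against Ancestral were 33 for MKT1e, 8 for MDS3e, 31 for MDS3e MKT1e and 32 for PMA1e MKT1e. They were 31 in MDS3e MKT1e against MDS3e and 11 against MKT1e, 0 in the other comparisons, and 34 by the F-test. The block ended no call of a gene. It added CMC2 in MKT1e against Ancestral (0.31, limma adjusted p = 0.036), in MDS3e against Ancestral (0.31, adjusted p = 0.032) and in MDS3e MKT1e against MDS3e (0.34, adjusted p = 0.028), and MSS51 in MDS3e MKT1e against MKT1e (-0.19). With 2 arrays a genotype, the spread is pooled over all genotypes, and dim genes such as ATP10 have differences reduced by the offset of 16.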
